A study of Mus musculus with 13 samples.

Results

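The uninjected experiment of this series compared the hippocampus of mice heterozygous for a Kmt2d gene trap allele, Kmt2d+/βGeo, with that of Kmt2d+/+ wild-type mice. Its members were the arrays whose titles mark them as experiment 1, which are 7 of the 13 arrays of the series, namely 4 wild-type and 3 Kmt2d+/βGeo arrays. Every mouse was on the C57BL/6J strain, was 1 to 2 months old, ate standard chow and received no injections. All were labelled female except wild-type replicate 3, whose sex is labelled unknown. RNA was taken from whole hippocampus with a Qiagen RNeasy kit, so each value mixes all cell types of the dissected tissue. The labels give each array a replicate number but do not say whether the samples came from separate mice or litters, so the p-values measure the spread between these arrays, which may be technical. The other 6 arrays come from experiment 2, in which both genotypes received saline injections, and do not enter the comparison.

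Kmt2d encodes a histone methyltransferase that places methyl groups on lysine 4 of histone H3, mainly at enhancers, and loss of 1 copy of the human gene causes Kabuki syndrome, a developmental disorder with intellectual disability. The βGeo cassette is a gene trap that joins a reporter and a drug resistance gene to the trapped transcript, and heterozygous mice keep 1 intact copy. The hippocampus holds granule neurons in the dentate gyrus and pyramidal neurons in fields CA1 to CA3. It borders the lateral ventricle, where ciliated ependymal cells line the wall and the choroid plexus secretes cerebrospinal fluid, and it lies near the septum, the thalamus and the striatum.

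Hippocampal marker genes had high values on all 7 arrays, and on wild-type replicate 2 striatal genes were high as well. Prox1, the transcription factor that marks dentate granule neurons, had log2 intensities of 9.18 to 10.28, lowest on wild-type replicate 2. Neurod6, of pyramidal neurons, lay between 10.45 and 10.85, and Zbtb20, of hippocampal projection neurons, between 11.77 and 12.04. Correlations between arrays over 19938 genes were 0.991 to 0.998. The first principal component held 39.1% of the variance and placed wild-type replicate 2 at one end, at 25.1, and wild-type replicate 3 at the other, at -15.0, with the 3 Kmt2d+/βGeo arrays between -3.72 and 7.04. Wild-type replicate 2 had 143 genes more than 1 log2 unit (2-fold) from the mean of the other wild-type arrays, wild-type replicate 3 had 40, and the other 5 arrays had 4 to 19. Since wild-type replicate 2 stood farthest from its group, the results are given with all 7 arrays and again without it.

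Kmt2d itself was measured by 2 probe sets that disagreed in direction. Probe set 10432294 read 7.87, 7.87, 7.87 and 7.90 in the wild-type arrays and 7.36, 7.17 and 7.47 in the Kmt2d+/βGeo arrays. Every Kmt2d+/βGeo array lay below every wild-type array, at 68.4% of the wild-type level on the linear scale, a log2 difference of -0.55 ± 0.08 (SE, 4 against 3 arrays). The exact permutation test gave p = 0.0286, the smallest that 4 against 3 arrays allow, and limma's adjusted p over every probe set was 0.503. Probe set 10432298 read 9.82, 9.82, 9.83 and 9.82 in wild type and 9.84, 9.95 and 9.93 in Kmt2d+/βGeo, so the heterozygous arrays were here the higher ones, by 0.09 ± 0.05 (SE), with an exact permutation p of 0.0286. In each probe set 3 wild-type values were identical, so the spread of the wild-type group is understated. Nothing used here states where either probe set lies relative to the trapped part of the gene, and together they give no single check of the labelled genotypes.

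Across all genes, 2 were lower in Kmt2d+/βGeo hippocampus at an adjusted p under 0.05 and none was higher, by limma with Benjamini-Hochberg adjustment over 19938 genes. These are 0.01% of the genes tested in the lower direction and 0% in the higher direction. At an unadjusted p under 0.05 there were 592 lower and 687 higher genes, 1279 in all, where 996.9 are expected of this many tests with no difference. With every probe set tested in place of 1 per gene, 1 probe set passed.

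Vat1l, a homologue of the synaptic vesicle membrane protein VAT1, was the gene with the lowest p. Its log2 intensities were 10.02, 9.96, 10.17 and 9.96 in wild-type replicates 1 to 4 and 8.92, 8.80 and 8.78 in the Kmt2d+/βGeo replicates. The groups were separated by more than 1 log2 unit with no overlap. The difference was -1.19 ± 0.07 (SE), a 2.29-fold lower level, with an adjusted p of 0.0014 by limma. Leaving out any of the 7 arrays kept the difference between -1.24 and -1.15 and the adjusted p at 0.0312 or below. The adjusted p was 0.409 when the spread was estimated from all 13 arrays of the series.

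Postn encodes periostin, a secreted protein of the extracellular matrix. Wild-type arrays read 6.73, 6.84, 7.03 and 6.82 and Kmt2d+/βGeo arrays 5.87, 6.10 and 5.95, again without overlap. The difference was -0.88 ± 0.09 (SE), a 1.84-fold lower level, at an adjusted p of 0.0396 by limma. Its size held between -0.94 and -0.82 when single arrays were left out. Only the fit without wild-type replicate 2 kept Postn under the threshold (adjusted p = 0.0113), while the other 6 fits with 1 array left out gave 0.0681 to 0.496.

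The next 13 lower genes by p did not pass the test with all 7 arrays, although none of them overlapped between genotypes. Over all genes, 2.72% had every Kmt2d+/βGeo array below every wild-type array and 4.47% had every one above. Genes chosen for their low p are nearly bound to be of this kind, so the separation itself is a description. Pld5, a member of the phospholipase D family, read 8.72, 8.53, 8.80 and 8.24 in wild type and 7.50, 7.44 and 7.14 in Kmt2d+/βGeo, a difference of -1.21 ± 0.14 (SE) at an adjusted p of 0.105. Without wild-type replicate 4 Pld5 passed the threshold, as it did without wild-type replicate 2 and in the model of all 13 arrays. Ano2, a calcium-activated chloride channel, read 7.30, 7.82, 7.52 and 7.24 against 6.72, 6.37 and 6.23, a difference of -1.03 ± 0.16 (SE, adjusted p = 0.225). Its highest wild-type value came from replicate 2. Ctxn3, a cortexin family membrane protein of the brain, read 7.52, 7.21, 7.62 and 7.34 against 6.60, 6.72 and 6.68, a difference of -0.76 ± 0.10 (SE, adjusted p = 0.15).

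The remaining genes of this group have varied known roles. Cfap65 and Cfap69, named for cilia and flagella, differed by -0.39 ± 0.06 and -0.36 ± 0.06 (SE), and Iqub by -0.62 ± 0.10. Cish, a suppressor of cytokine signalling, differed by -0.50 ± 0.07 and Adgrd1, an adhesion G protein-coupled receptor, by -0.64 ± 0.10. Ebf3, a transcription factor of neuronal differentiation, differed by -0.59 ± 0.09, and Cacna2d2, an auxiliary subunit of voltage-gated calcium channels, by -0.60 ± 0.10. Spata18, which acts in mitochondrial quality control, differed by -0.62 ± 0.09, the actin-bundling plastin Pls1 by -0.48 ± 0.08 and Vwa5b1 by -0.46 ± 0.07. Their adjusted p-values by limma were 0.225 to 0.267, so none of these differences passed the test. All 15 lower genes kept their direction whichever array was left out, which follows from the lack of overlap and is no separate support. Of these 15, 13 passed without wild-type replicate 2.

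**Figure D1:**
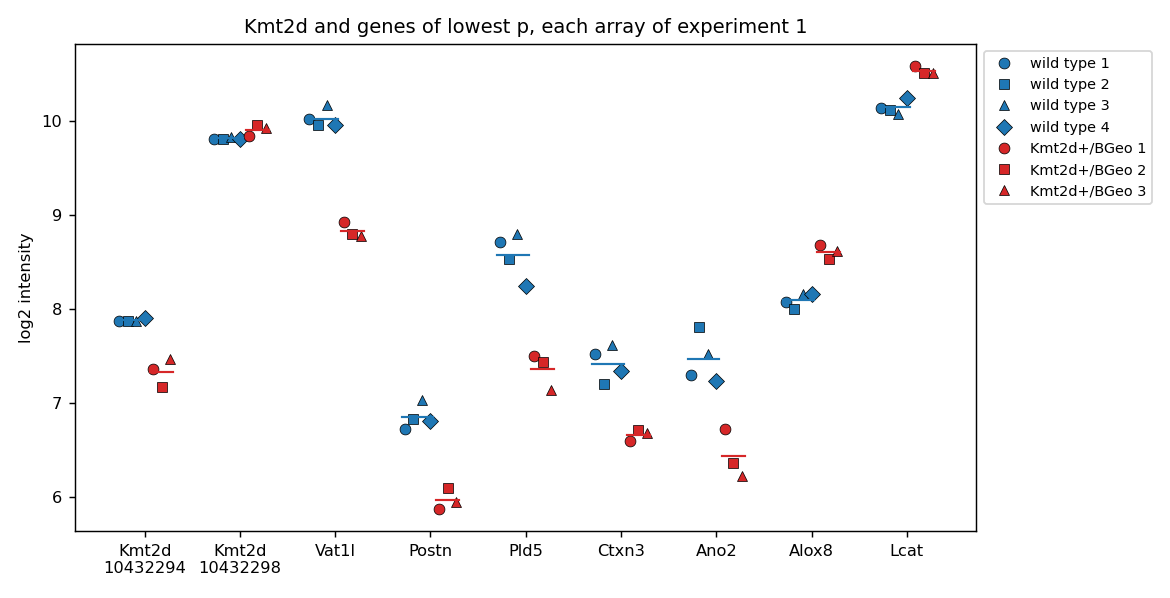
Log2 intensity (vertical axis) of the 2 Kmt2d probe sets and of 7 genes of low p in each of the 4 wild-type (blue) and 3 Kmt2d+/βGeo (red) arrays, with marker shapes for the replicates and horizontal lines at the group means. Vat1l and Postn were the genes past the threshold, and the 2 Kmt2d probe sets differ in opposite directions.

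On the higher side no gene passed, and differences were smaller. Alox8, an arachidonate lipoxygenase, had the lowest p, with 8.08, 8.002, 8.17 and 8.16 in wild type against 8.68, 8.54 and 8.62 in Kmt2d+/βGeo. The difference of 0.51 ± 0.06 (SE) was a 1.43-fold higher level at an adjusted p of 0.15. Lcat, which esterifies cholesterol in lipoproteins, read 10.14, 10.12, 10.07 and 10.25 against 10.59, 10.51 and 10.52 and differed by 0.39 ± 0.06 (SE, adjusted p = 0.225). Neither gene overlapped between genotypes.

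The other 10 higher genes of lowest p also lay wholly above wild type. Homer3, a postsynaptic scaffold protein, differed by 0.34 ± 0.06 (SE), and Kcnk4, a background potassium channel, by 0.30 ± 0.07. Ptgs2, the activity-induced cyclooxygenase 2, read 9.88, 9.996, 10.15 and 10.07 in wild type and 10.55, 10.30 and 10.65 in Kmt2d+/βGeo, a difference of 0.48 ± 0.10 (SE). Lct, which encodes lactase and is used as a marker of dentate granule neurons, differed by 0.66 ± 0.14 and was the member of this group with the largest difference. Its wild-type replicate 2 value of 8.51 lay well below the 9.001 to 9.12 of the other wild-type arrays. Rfx3, a transcription factor known for activating genes of motile cilia, was among the higher genes at 0.36 ± 0.07. In the lists below Rfx3 counts among the dentate granule genes. Cav1, a coat protein of caveolae, differed by 0.32 ± 0.06, the secreted protein Scube1 by 0.32 ± 0.06, the formin Fmnl1 by 0.27 ± 0.05, the Wnt coactivator Pygo2 by 0.25 ± 0.05 and the protease Tmprss3 by 0.25 ± 0.05. The adjusted p-values of these 12 genes by limma were 0.15 to 0.424. All 12 kept their direction with any array left out, which again follows from the lack of overlap. Lct and Alox8 passed without wild-type replicate 2.

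Ranked by size rather than by p, 21 genes (0.105% of all) were more than 1 log2 unit lower in Kmt2d+/βGeo and 1 gene (0.00502%) was more than 1 log2 unit higher. The largest lower differences were those of Tc2n (-1.40), Clic6 (-1.34), Slc4a5 (-1.26) and Pld5 (-1.21). Apart from Pld5, these genes were spread widely within wild type. Tc2n, a C2 domain protein, read 7.34, 5.97, 8.60 and 7.73 against 5.58, 7.06 and 5.41, and the groups overlapped. The single gene above 1 was Xist, the RNA of the inactive X chromosome, at 1.41, and it rested on wild-type replicate 3 alone. Next came Lct, Capn11 (0.62) and Plekha2 (0.57), of which Capn11 read 6.54 in Kmt2d+/βGeo replicate 3 and 5.80 and 5.70 in the others.

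Lists of marker and pathway genes, 22 in all with 353 measured members, were set beside these results. They were chosen with earlier results of these data known. Members of a list were read on the same 7 arrays and are not independent, so their counts and shares are a description. No member of any list passed the test with all 7 arrays. Over all 19938 genes the median difference was 0.02 and 42.4% of genes lay below 0. A lower value in whole tissue can come from fewer cells of a type in the sample or from less RNA per cell, and the 2 cannot be told apart here.

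Genes of motile cilia, the beating hairs of ependymal cells, were lower as a group and separated the genotypes most often. All 26 measured members lay below 0, with a median of -0.30, and 17 of the 26 had no overlap between genotypes, against 2.72% of all genes. In the limma fit 19 of the 26 were lower at an unadjusted p under 0.05, against 592 of all 19938 genes. The list median, taken from each gene's mean over the 7 arrays, was 0.13, 0.03, 0.29 and 0.13 in the wild-type arrays and -0.12, -0.11 and -0.27 in the Kmt2d+/βGeo arrays. All 4 wild-type arrays were thus above all 3 heterozygous ones, and the median without wild-type replicate 2 was -0.34.

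The 4 members of lowest p were Rsph4a, Dnah12, Dnah6 and Dnah11. Rsph4a, a radial spoke head protein, read 8.12, 7.90, 8.24 and 8.37 in wild type and 7.64, 7.53 and 7.33 in Kmt2d+/βGeo, a difference of -0.66 ± 0.12 (SE, adjusted p = 0.27). The dynein heavy chains Dnah12, Dnah6 and Dnah11, motors of the ciliary axoneme, differed by -0.44 ± 0.08, -0.64 ± 0.12 and -0.48 ± 0.10 (SE). Sntn, a protein of the ciliary tip, read 6.47, 6.71, 6.83 and 6.57 against 6.24, 6.07 and 5.66. Hydin, of the central pair apparatus, read 7.01, 6.90, 7.25 and 6.95 against 6.71, 6.71 and 6.31. In these 6 genes the genotypes did not overlap. Other axonemal members overlapped, among them the dynein heavy chain Dnah5 (-0.13 ± 0.10), Spag17 of the central pair (-0.20 ± 0.10) and Ccdc113 (-0.14 ± 0.08). Foxj1, the transcription factor that switches on the ciliary programme, differed by only -0.10 ± 0.06 (SE), with values of 7.51 to 7.55 in wild type and 7.36 to 7.54 in Kmt2d+/βGeo that overlapped.

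The promoters of these genes were searched for the X-box, the inverted repeat that RFX transcription factors bind. The RefSeq promoter table (build GRCm38.p6) holds 300 bases per start site, 250 before the start and 50 from it on, and has 22 of the 26 ciliary genes and 18 of the 24 choroid plexus genes. The X-box consensus of 14 letters, searched first and on both strands, was in 0 of the 22 ciliary genes and 0 of the 18 choroid plexus genes, and in 0.529% of all genes. After that result was known 6 other spellings were tried, which overlap each other and the first. A stricter form of 14 letters was in 0 of the 22 ciliary genes (0.355% of all genes) and a looser one in 2 (0.788%). A half-site extended to 10 letters was in 1 (0.633%), and a looser one of that length in 5 (5.65%). GGTTGCC was in 4 (4.31%), and the bare half-site GTTGCC was in 9 of the 22 (14.1% of all genes) and in 4 of the 18 choroid plexus genes. The consensus as first searched thus had no match, and the counts of the later spellings are a description of these letters only. The promoters of 3 ciliary genes with a half-site are shown as examples, picked after the search. Of the 9 genes with a half-site, Ccdc153, Tekt1 and Cfap44 also separated the genotypes and are not shown. The strand of the gene is given 5′ to 3′, and capitals mark GTTGCC or its reverse complement GGCAAC.

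Sntn promoter, chr14:13670626-13670925, plus strand: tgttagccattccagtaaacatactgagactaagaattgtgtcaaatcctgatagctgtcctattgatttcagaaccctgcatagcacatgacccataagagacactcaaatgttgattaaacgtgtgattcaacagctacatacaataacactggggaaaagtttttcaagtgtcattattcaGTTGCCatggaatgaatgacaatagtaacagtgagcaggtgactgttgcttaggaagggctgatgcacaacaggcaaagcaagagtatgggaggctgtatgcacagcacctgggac

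Hydin promoter, chr8:110266727-110267026, plus strand: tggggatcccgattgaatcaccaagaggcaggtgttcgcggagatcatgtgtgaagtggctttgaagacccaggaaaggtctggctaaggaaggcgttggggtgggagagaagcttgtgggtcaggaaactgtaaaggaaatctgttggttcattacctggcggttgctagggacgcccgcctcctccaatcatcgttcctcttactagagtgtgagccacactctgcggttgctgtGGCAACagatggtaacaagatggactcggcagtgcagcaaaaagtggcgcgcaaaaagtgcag

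Mlf1 promoter, chr3:67373847-67374146, plus strand: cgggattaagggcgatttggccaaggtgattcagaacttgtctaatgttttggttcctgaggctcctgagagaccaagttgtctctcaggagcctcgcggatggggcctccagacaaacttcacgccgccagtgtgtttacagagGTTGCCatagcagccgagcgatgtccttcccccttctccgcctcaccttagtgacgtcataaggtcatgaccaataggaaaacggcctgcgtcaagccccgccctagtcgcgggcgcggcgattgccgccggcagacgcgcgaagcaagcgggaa

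The half-site begins at position -66 from the start in Sntn, on the gene's strand. In Hydin it begins at -13 on the opposite strand, and in Mlf1 at -105 on the gene's strand. The letters before the Hydin half-site complete an inverted repeat that differs from the consensus first searched by a single letter. Mlf1, a ciliated cell gene of the list, read 5.84, 5.84, 5.96 and 5.96 in wild type and 5.72, 5.68 and 5.56 in Kmt2d+/βGeo.

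Choroid plexus genes showed the largest median difference of the 22 lists, and it was the list in which wild-type replicate 2 mattered most for the calls. All 22 measured members were lower in Kmt2d+/βGeo, with a median of -0.83 and a range of -1.34 to -0.22. With all 7 arrays 2 of the 22 (9.09%) did not overlap between genotypes, against 2.72% of all genes. The list medians were 0.54, 0.79 and 0.79 in wild-type replicates 1, 3 and 4, but -0.61 in wild-type replicate 2, next to -0.60, -0.32 and -0.59 in the Kmt2d+/βGeo arrays.

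Single members repeated this order. Clic6, an intracellular chloride channel protein, read 9.26, 7.89, 9.31 and 9.47 in wild type against 7.53, 7.83 and 7.57. Folr1, the folate receptor that carries folate into cerebrospinal fluid, read 9.38, 8.02, 9.49 and 9.70 against 8.01, 8.33 and 8.01. In both genes 3 wild-type arrays were more than 1 log2 unit above the heterozygous ones and wild-type replicate 2 was not. Kcnj13, a potassium channel of the choroid epithelium, read 11.24, 9.47, 11.41 and 11.58 against 9.47, 10.05 and 9.80. Ttr, the thyroid hormone carrier transthyretin, read 13.35, 12.86, 13.36 and 13.43 against 12.58, 12.90 and 12.96. Without wild-type replicate 2 the list median was -1.19 and all 22 members were free of overlap, against 7.57% of all genes. In that fit 19 of the 22 passed the limma test, where 0.632% of all genes were called lower. How much choroid plexus stayed on each dissected sample is not stated in the labels, and its part in the result was not tested.

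Striatal projection neuron genes had the opposite dependence. Drd2, the dopamine D2 receptor, read 8.10, 11.43, 8.18 and 7.83 in wild type and 7.85, 7.70 and 7.61 in Kmt2d+/βGeo. Penk, the enkephalin precursor, read 10.12, 12.97, 10.14 and 9.97 against 10.45, 10.19 and 10.19. In both, wild-type replicate 2 alone was high. It was the highest of the 7 arrays for all 18 measured members, with a list median of 2.04 against -0.42 to -0.23 on the other 6 arrays. The list median of -0.63 with all 7 arrays became 0.00 without it, and no member reached an unadjusted p of 0.05. Rxrg, Ppp1r1b and Sh3rf2 (16.7% of the list) had no overlap between genotypes, against 2.72% of all genes. Without wild-type replicate 2 Rxrg, Ppp1r1b and Sh3rf2 still differed by -0.45, -0.23 and -0.27.

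Septal and cholinergic genes lay lower on all 12 measured members, with a median of -0.37 that was -0.26 without wild-type replicate 2. Slc10a4, a transporter of cholinergic vesicles, read 6.77, 7.37, 6.83 and 6.47 in wild type and 5.90, 5.85 and 5.92 in Kmt2d+/βGeo, a difference of -0.97 ± 0.18 (SE, adjusted p = 0.27). The 3 heterozygous values were close together and all below wild type. Ecel1, a neuronal endopeptidase, differed by -1.11 ± 0.24 and Zic4, a zinc finger factor of the medial forebrain, by -0.50 ± 0.11 (SE). Zic1 read 9.88, 8.82, 9.91 and 9.43 against 8.11, 8.87 and 8.29, where wild-type replicate 2 lay inside the heterozygous range. In contrast, wild-type replicate 2 was the highest of the 7 arrays for 8 of the 12 genes, among them Slc10a4, Ecel1 and Chat. Its list median was 0.47, against 0.01 to 0.09 on the other wild-type arrays. Chat, the acetylcholine-synthesising enzyme, read 6.39 there, 5.58 to 5.64 on the other wild-type arrays and 5.48 to 5.71 in Kmt2d+/βGeo. In all, 5 of the 12 genes were free of overlap with the heterozygous arrays lower, against 2.72% of all genes.

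Myelin genes were lower by a smaller amount. Of 22 measured oligodendrocyte genes 20 lay below 0, with a median of -0.22 (-0.15 without wild-type replicate 2), and 7 were free of overlap, against 2.72% of all genes. Without Kmt2d+/βGeo replicate 3 the median was -0.12. Trf, transferrin, which oligodendrocytes produce, read 11.83, 11.92, 11.88 and 11.86 in wild type and 11.55, 11.58 and 11.33 in Kmt2d+/βGeo, a difference of -0.39 ± 0.07 (SE, adjusted p = 0.276). Aspa, the enzyme that splits N-acetylaspartate, differed by -0.64 ± 0.13, and the myelin protein gene Mobp by -0.32 ± 0.08 (SE). The lowest array was Kmt2d+/βGeo replicate 3, with a list median of -0.30, while replicates 1 and 2 were at -0.04 and -0.02 against 0.01 to 0.24 in wild type. Sox10, the lineage's transcription factor, differed by 0.01 ± 0.11. Of 9 oligodendrocyte precursor genes 5 lay below 0, with a median of -0.01.

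Dentate granule neuron genes had the largest median difference of the lists on the higher side. Of 20 members 19 lay above 0, with a median of 0.32, and 11 were free of overlap, against 4.47% of all genes. List medians were -0.13, -0.41, 0.04 and 0.01 in wild type and 0.20, 0.13 and 0.20 in Kmt2d+/βGeo, so the groups were apart but wild-type replicate 2 was far lower than the rest. It was the lowest of the 7 arrays for 16 of the 20 genes. Without it the median was 0.19 and 11 genes were free of overlap, against 7.48% of all genes in that comparison. Stxbp6, a regulator of vesicle fusion, read 10.32, 10.09, 10.40 and 10.51 against 10.79, 10.64 and 10.78. C1ql2, a secreted synaptic organiser of mossy fibres, read 9.47, 9.19, 9.63 and 9.81 against 10.01, 9.84 and 10.10. Both genes had all heterozygous arrays on top. Prox1 read 9.86, 9.18, 10.11 and 10.09 against 10.27, 10.28 and 10.27, and Calb1, which encodes calbindin, differed by -0.07 ± 0.10.

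Pyramidal neuron lists differed less. CA3 and CA2 genes had a median of 0.12, with 11 of 16 above 0 and 3 free of overlap on the higher side (4.47% of all genes), among them Bok, a BCL2 family member, at 0.25 ± 0.07 (SE). CA1 genes had a median of -0.02 with 8 of 13 below 0 and none free of overlap, and the median was 0.04 without wild-type replicate 3 and 0.06 without Kmt2d+/βGeo replicate 2. The list on adult neurogenesis had a median of -0.002 over 16 genes and held differences in both directions at low p. Eomes, the transcription factor of intermediate progenitors, read 6.89, 6.60, 6.98 and 6.60 against 6.33, 6.31 and 6.33, a difference of -0.44 ± 0.10. Neurod1, of differentiating granule neurons, lay higher by 0.38 and Mcm5, a replication licensing factor, by 0.19.

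Inhibitory neuron genes split evenly, 9 below and 9 above 0. Gad2, 1 of the GABA-synthesising enzymes, read 11.37, 11.44, 11.29 and 11.07 in wild type against 10.98, 10.93 and 10.88, a difference of -0.36 ± 0.09 (SE), while the neuropeptide Npy differed by 0.24 ± 0.07. Neither passed the test over all genes. Of 18 astrocyte genes 15 lay above 0 with a median of 0.06, and without wild-type replicate 2, the lowest of the 7 arrays for 14 of them, 10 lay above 0 with a median of 0.01. Microglia, endothelium and cortex medians lay between -0.05 and 0.02, and each changed sign with some array left out. Of 19 microglial genes 1 lay wholly above wild type and 2 wholly below. Fcrls, an Fc receptor-like protein, differed by 0.31 ± 0.08 (SE), while Olfml3 differed by -0.19 ± 0.06 and Ctss by -0.23 ± 0.08. Meningeal genes had a median of -0.08 that was -0.26 without wild-type replicate 2.

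Partners of KMT2D and other enzymes of histone H3 lysine 4 methylation differed little. Of 24 members 20 lay above 0, with a median of 0.05 against 0.02 for all genes. Kdm5c, an H3K4 demethylase, read 9.16, 9.21, 9.01 and 9.24 in wild type and 9.43, 9.37 and 9.25 in Kmt2d+/βGeo, a difference of 0.20 ± 0.07 (SE). Its lowest value was that of wild-type replicate 3, the array of unknown sex, and the difference without that array was 0.15. The scaffold Men1 differed by 0.13 ± 0.05, and the X-linked demethylase Kdm6a, whose gene is also mutated in Kabuki syndrome, by 0.13 ± 0.12. Kmt2c and Kmt2a, relatives of Kmt2d, differed by -0.01 ± 0.05 and 0.00 ± 0.06. Kmt2d counts in this list by its higher probe set. Ketone body genes had a median of 0.02 with 6 of 9 above 0, and -0.05 with 3 of 9 above 0 without wild-type replicate 2. Immediate early genes had a median of -0.08 over 18 members and of 0.01 without that array.

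**Figure D2:**
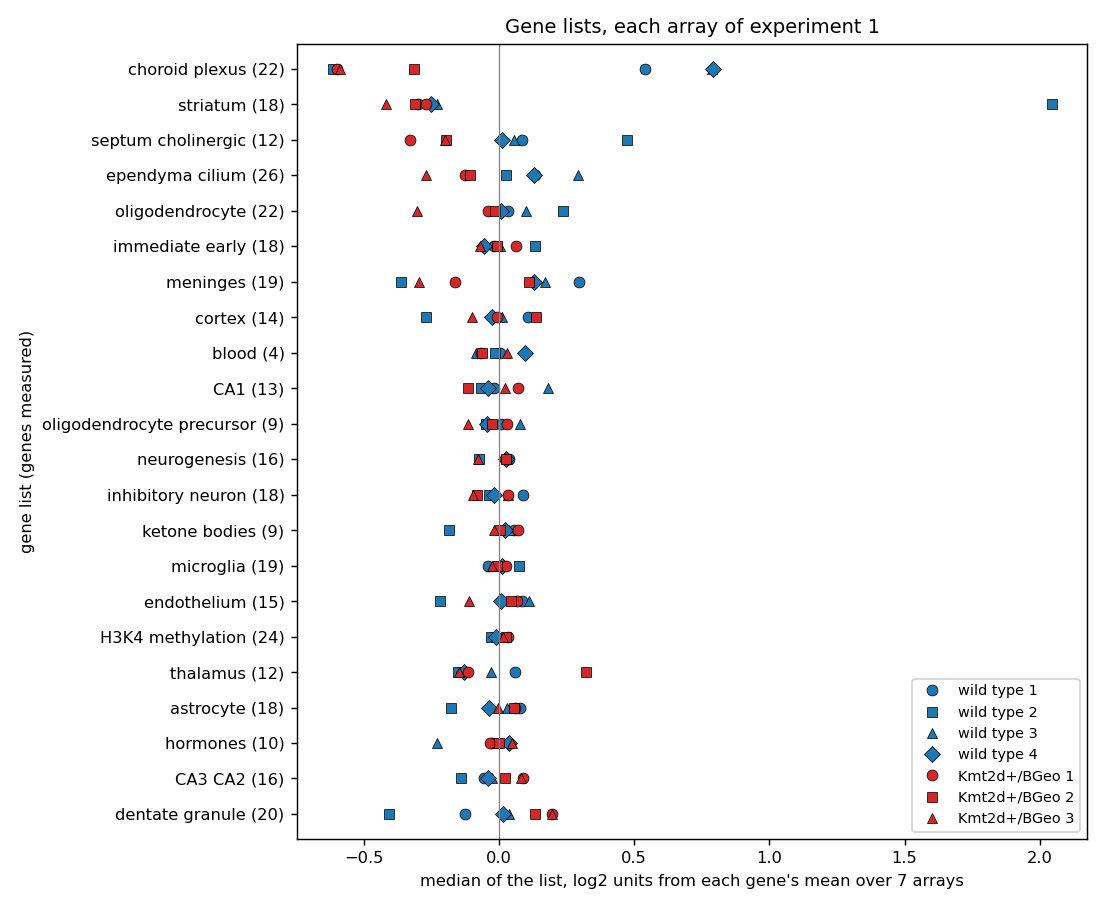
Median of each of the 22 gene lists (vertical axis, with the number of genes measured) on each array, as log2 units from each gene's mean over the 7 arrays (horizontal axis), with wild type in blue and Kmt2d+/βGeo in red. Wild-type replicate 2 (blue square) stands at 2.04 for striatum and at -0.61 for choroid plexus, beside the Kmt2d+/βGeo arrays, while ependyma and cilium medians separate the genotypes.

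How far single wild-type arrays carry the comparison was measured by leaving each out in turn. Without wild-type replicate 1 or 3, 1 gene was lower and none higher by limma, and without replicate 4, 2 were lower (Vat1l and Pld5). Without wild-type replicate 2 the counts were 126 lower and 2 higher genes, or 0.632% and 0.01% of genes tested. Leaving out any single Kmt2d+/βGeo array left 1 lower gene and none higher. Vat1l was called in all 7 of these fits. Without wild-type replicate 3, list medians were -0.69 for choroid plexus, -0.27 for ciliary, -0.84 for striatal and -0.40 for septal and cholinergic genes. They were -0.22 for oligodendrocyte and 0.35 for dentate granule genes. The difference of between 8.9% and 15.5% of genes changed sign when 1 array was left out, and the highest share belonged to wild-type replicate 2.

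The 128 genes called without wild-type replicate 2 were mostly those on which that array was the lowest of wild type. This held for 118 of the 126 genes called lower, where it is the side of the heterozygous arrays, and also for Lct and Alox8, the 2 called higher, where it is the far side. On 45 of the 128 it lay within the range of the Kmt2d+/βGeo arrays. With all 7 arrays, 44 of the 128 had no overlap and 101 had an unadjusted p under 0.05. The lists held 30 of the 128, including 19 choroid plexus and 4 ciliary genes. Genes called there outside the lists are named here after their values were seen. Glp1r, the receptor for glucagon-like peptide 1, read 9.65, 8.12, 9.91 and 9.63 in wild type against 8.36, 8.18 and 8.09. Slc2a12, a glucose transporter, read 9.45, 8.06, 9.68 and 9.68 against 8.32, 8.53 and 8.36, and Ace, angiotensin-converting enzyme, read 9.67, 8.74, 10.002 and 10.07 against 8.42, 8.92 and 8.58. On each of these, wild-type replicate 2 alone read like the heterozygous arrays or lower.

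By the same count of separation, 967 further genes would have lain wholly below wild type, and 600 wholly above, but for wild-type replicate 2 alone. The matching counts were 193 and 464 for wild-type replicate 1, 271 and 703 for replicate 3, and 294 and 471 for replicate 4. Genes with every heterozygous array below wild type were 7.57% of all genes without wild-type replicate 2 and those above were 7.48%, from 2.72% and 4.47% with all arrays. Fewer wild-type arrays give more separation by construction, and leaving out replicates 1, 3 or 4 gave 736 to 837 lower and 1355 to 1594 higher genes, against 1510 and 1491 without replicate 2.

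**Figure D3:**
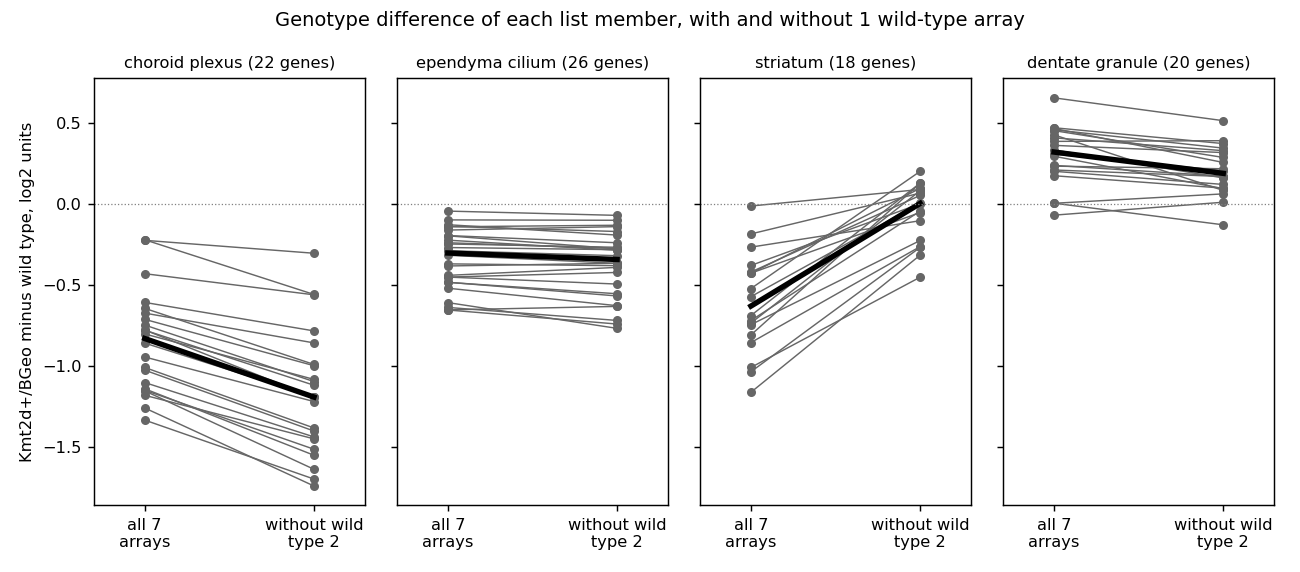
Difference between Kmt2d+/βGeo and wild type in log2 units (vertical axis) for each member of 4 lists, with all 7 arrays and without wild-type replicate 2 (horizontal axis); grey lines join the values of a gene and the black line joins the list medians. Choroid plexus genes move from a median of -0.83 to -1.19, striatum from -0.63 to 0.00, and ependyma and dentate granule lists keep their side of 0.

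**Figure D4:**
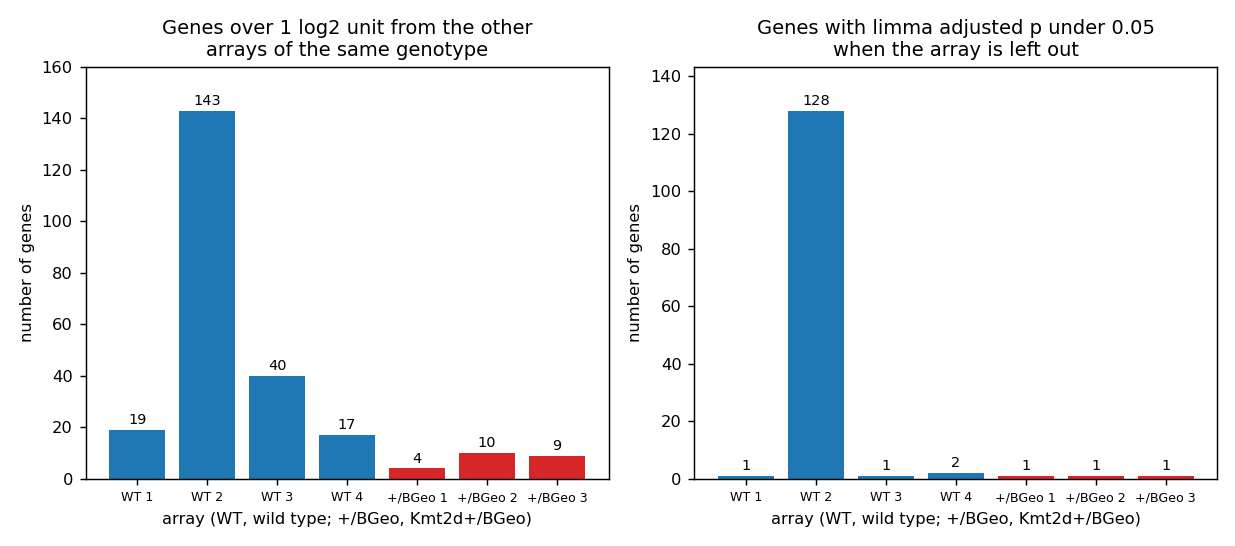
For each of the 7 arrays (horizontal axis), the number of genes more than 1 log2 unit from the mean of the other arrays of its genotype (left) and the number of genes with a limma adjusted p under 0.05 when that array is left out (right), as bars with counts. Wild-type replicate 2 has 143 and 128, and no other array exceeds 40 and 2.

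Each array was also read for the genes on which it lay farthest from its group. On wild-type replicate 2 these were Scn4b, a sodium channel subunit, Serpina9 and Drd2 on the high side, and Kcnj13, Slc4a5 and Tc2n on the low side. On wild-type replicate 3, whose sex is unlabelled, Xist read 4.81 against 10.91 to 11.12 on the other wild-type arrays. The Y-linked genes Eif2s3y, Uty and Kdm5d read 8.14, 8.83 and 7.55 there and 3.56 to 3.64, 3.69 to 3.78 and 4.39 to 4.74 on the others. All 3 Kmt2d+/βGeo arrays had high Xist, at 10.70 to 11.05, so the Xist difference between genotypes was -0.15 without wild-type replicate 3. Low Xist with high Y-linked genes is the pattern of a male sample. Only wild-type replicate 3 had it, so sex was not balanced between the genotypes.

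Genes of neighbouring organs marked further arrays. Tph1, the serotonin-synthesising enzyme of the pineal gland, and Rbp3, a retinoid carrier of pineal and retina, read 8.49 and 8.19 on wild-type replicate 3 and 7.13 and 7.32 on Kmt2d+/βGeo replicate 2, and between 5.22 and 5.60 on the other arrays. Prl, prolactin, and Pomc, the precursor of corticotropin, read 7.45 and 8.06 on Kmt2d+/βGeo replicate 3. Prl also read 6.74 on wild-type replicate 4, where Pomc was 6.38. These genes were high in arrays of both genotypes except Pomc, and their differences did not pass the test (adjusted p = 0.887 to 0.988 by limma). The part of such tissue in any other result was not tested.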

How the data were processed

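RNA of 7 hippocampus samples was read on Affymetrix Mouse Gene 1.0 ST arrays, 1 array per sample. The deposited table holds log2 intensities of 35556 probe sets, which the authors made with RMA in oligo, per the submitters' processing notes; which build and versions were used, and whether the 13 arrays shared 1 normalisation, remain not given in the sources used here. RMA is meant to equalise the arrays, yet the medians of the 7 arrays ran from 6.74 to 6.90. GEO's platform annotation gave 21789 probe sets 1 gene symbol, 1621 several and 12146 none; symbols were updated through RefSeq identifiers for 21698. The probe set with the highest mean was kept per gene, leaving 19938 genes with no filter on low values. Genotype was fitted with limma 3.58.1 in R 4.3.3 (lmFit and eBayes) and Benjamini-Hochberg adjustment; the procedure was tested on simulated data. Named were both Kmt2d probe sets, the 15 lower and 12 higher genes of lowest p, the 4 of lowest p per list, the 4 largest differences each way, the 3 genes farthest above and below on each array, and sex-linked genes; other genes named were chosen after their values were seen. A gene counted as free of overlap when all arrays of one genotype lay beyond all of the other. Precision is limited by the 4 and 3 arrays per group. The members and the gene lists were chosen with earlier results of these data known.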

Additional observations from a re-analysis of the deposited data

Results flagged for a closer look

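In the 4 wild-type arrays, the highest or lowest value was checked for a gap to its nearest neighbour above Dixon's critical share of the group's range, over 22 list medians and 37 genes. Chance passes this limit in about 1 of 20 groups of untied values. The genes checked were not a random sample and included sex-linked genes and tied values, so the count is a description. In all, 4 lists and 8 genes passed the limit. Wild-type replicate 2 was the far array for the list medians of striatum (2.04), septal and cholinergic genes (0.47), neurogenesis (-0.073) and ketone bodies (-0.19). It was also the far array for Clic6 (7.89) and Vwa5b1 (7.41), below the others. Wild-type replicate 3 was the far array for Cfap65 (7.93), for Kmt2d by probe set 10432298 (9.83, beside 3 identical values) and for the sex-linked genes Xist (4.81), Kdm5d (7.55), Eif2s3y (8.14) and Uty (8.83).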

How the results depend on the processing

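The count of lower genes was 2 with the mean of probe sets, the lowest 30% of genes left out, median centring, an intensity trend or robust eBayes, and 3 with array weights. It was 1 with every probe set, with the lowest 50% left out and with quantile normalisation, and 4 (Pld5, Postn, Ano2 and Ctxn3) in the model of all 13 arrays, whose pooled spread left Vat1l out. With 1 array left out it ranged from 1 to 126 and the higher count from 0 to 2; without wild-type replicates 2 and 3 they were 32 and 1. Genes apart between genotypes ranged from 736 to 1510 on the lower side and 1355 to 1804 on the higher side with 1 array left out, and were 2327 and 2702 without wild-type replicates 2 and 3. The labels do not say whether the replicate numbers pair the samples. Same-number deviations correlated at 0.22, -0.09 and -0.23, and different-number ones at -0.28 to 0.33, which cannot settle it. The fit with a replicate block called 0 lower genes, on fewer residual degrees of freedom.

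Of 22 list medians 11 changed sign with 1 array left out, most of them close to 0, among them striatum (-0.85 to 0.003), endothelium (-0.068 to 0.10), ketone bodies (-0.046 to 0.073), CA1 (-0.049 to 0.064), thalamus (-0.088 to 0.18) and cortex (-0.089 to 0.044). List medians that moved by more than the spread between arrays were septal genes -0.61 with the lowest 50% left out, inhibitory neurons -0.082 with array weights, -0.062 without wild-type replicates 2 and 3 and -0.11 to 0.022 with 1 array left out, H3K4 methylation 0.035 with the mean of probe sets, 0.061 with median centring and 0.035 to 0.060 with 1 array left out, microglia 0.071 and immediate early genes 0.057 without wild-type replicates 2 and 3. Immediate early genes ranged from -0.115 to 0.0081 and CA3 and CA2 genes from 0.101 to 0.16 with 1 array left out. Of the 137 genes that the naming rule gave, 24 changed sign under some setting. Kmt2d was -0.23 with the mean of its probe sets, through the lower one. S100a8 and S100a9 were -0.034 and -0.028 with array weights and -0.053 and -0.036 without wild-type replicates 2 and 3, where Pou3f1 was 0.069, Aacs -0.015, Xist -0.11, Drd1 0.049, Eif2s3y 0.024, Glra3 -0.034, Kdm5d 0.064, Scn4b 0.30, Serpina9 0.083 and Uty 0.28. With array weights and without wild-type replicates 2 and 3, Phxr4 was 0.095 and 0.14, Prl -0.11 and -0.22, Rbp3 0.30 and 0.48, Tph1 0.29 and 0.59, and Trhr -0.31 and -0.60. Mir384 was -0.078 with the replicate block. With 1 array left out Pomc ranged from -0.11 to 0.89, S100a8 from -0.030 to 0.077, S100a9 from -0.038 to 0.081, Trh from -0.032 to 0.51, Xist from -0.15 to 1.96, Drd1 from -1.02 to 0.13, Dsc3 from -0.43 to 0.13, Eif2s3y from -1.52 to 0.010, Ide from -0.26 to 0.12, Mir384 from -0.32 to 0.67, Phxr4 from -0.34 to 0.30, Prl from -0.25 to 1.06, Rbp3 from -0.85 to 0.52, Scn4b from -1.29 to 0.13, Serpina9 from -1.21 to 0.049, Snora3 from -0.69 to 0.33, Tph1 from -0.80 to 0.59, Trhr from -0.32 to 0.35 and Uty from -1.42 to 0.29. The cause of these changes was not tested. Signal over background could not be judged from RMA values.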
